A study of Mus musculus with 10 samples.

Results

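Acetylation of histone H3 at lysine 27 (H3K27ac), which marks promoters and enhancers in use, was examined at the genes that define inhibitory neurons in the mouse cerebral cortex: Gad1, Gad2, Slc32a1, Sst, Pvalb, Lhx6, Dlx1 and Dlx2. The genes were picked by name, and their regions were all rows of the table that overlap by at least 1 bp a window set around each gene in mm9 coordinates, with Dlx1 and Dlx2 in 1 shared window. This gave 8 of 50898 regions, 6 of class prom (read here as promoter) and 2 of class enh (read here as enhancer), at 7 loci. ChIP-seq libraries came from the cortex of 10 C57BL/6J mice aged 8 weeks, 5 heterozygous for a DNMT3A knockout (Het) and 5 wild-type littermates (WT), 1 mouse per library. They form 5 littermate pairs of 1 WT and 1 Het mouse, numbered 1 to 5 here. Pairs 1, 3 and 5 are male and pairs 2 and 4 female. Pair 5 was joined by elimination, since its titles share no litter number. The labels do not say in which cells the knockout allele is recombined, and the Het mouse of pair 5 is named cKO in its description but heterozygous in its genotype label. Values are pseudo-counts, read counts that the authors adjusted to 1 common library size.

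Inhibitory neurons of the cortex make the transmitter GABA with the 2 glutamate decarboxylases that Gad1 and Gad2 encode, and load it into vesicles with the transporter that Slc32a1 encodes. Dlx1 and Dlx2 are homeobox transcription factors that set up this lineage in the embryonic ventral forebrain. Lhx6 is a LIM homeobox factor that acts later in the branch from which most somatostatin (Sst) and parvalbumin (Pvalb) cells come. DNMT3A writes new DNA methylation, in neurons both at CpG sites and outside them. The cortex also holds many more excitatory neurons and glia, which do not use these genes as identity genes, so a bulk library carries the inhibitory signal diluted. In such a library, fewer inhibitory neurons and less acetylation per inhibitory neuron cannot be told apart.

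The promoters differ in their density of CpG, the main target of DNMT3A, and 6 sequences are shown for that reason. The libraries hold no DNA methylation values, so a link between CpG density and the knockout was not tested. Each is the 250 bases before an annotated start, 5′ to 3′, from RefSeq in the build GRCm38.p6 (not the mm9 of the regions), with every CG in capitals.
Dlx2, chr2:71546755-71547004, minus strand: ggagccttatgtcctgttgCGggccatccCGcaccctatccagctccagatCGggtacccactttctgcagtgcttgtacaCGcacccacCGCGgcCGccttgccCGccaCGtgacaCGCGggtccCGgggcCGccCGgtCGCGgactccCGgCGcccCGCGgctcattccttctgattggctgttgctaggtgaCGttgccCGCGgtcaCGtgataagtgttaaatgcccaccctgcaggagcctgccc
Dlx1, chr2:71529195-71529444, plus strand: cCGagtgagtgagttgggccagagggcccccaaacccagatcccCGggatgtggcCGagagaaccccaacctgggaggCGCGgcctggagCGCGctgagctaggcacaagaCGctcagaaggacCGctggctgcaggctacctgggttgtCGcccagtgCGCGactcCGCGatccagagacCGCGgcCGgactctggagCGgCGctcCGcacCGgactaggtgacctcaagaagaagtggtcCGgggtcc
Gad1, chr2:70561879-70562128, plus strand: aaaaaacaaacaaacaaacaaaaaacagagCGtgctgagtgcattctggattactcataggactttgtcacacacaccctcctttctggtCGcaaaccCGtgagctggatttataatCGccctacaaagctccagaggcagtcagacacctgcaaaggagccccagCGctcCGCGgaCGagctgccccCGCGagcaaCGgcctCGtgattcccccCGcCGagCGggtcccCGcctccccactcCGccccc
Sst, chr16:23890845-23891094, minus strand: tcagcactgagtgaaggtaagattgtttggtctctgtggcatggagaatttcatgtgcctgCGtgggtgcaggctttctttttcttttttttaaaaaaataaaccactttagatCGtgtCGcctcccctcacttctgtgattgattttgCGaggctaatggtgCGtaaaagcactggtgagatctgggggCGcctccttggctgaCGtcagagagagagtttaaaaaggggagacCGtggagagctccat
Pvalb entry 1, chr15:78206401-78206650, minus strand: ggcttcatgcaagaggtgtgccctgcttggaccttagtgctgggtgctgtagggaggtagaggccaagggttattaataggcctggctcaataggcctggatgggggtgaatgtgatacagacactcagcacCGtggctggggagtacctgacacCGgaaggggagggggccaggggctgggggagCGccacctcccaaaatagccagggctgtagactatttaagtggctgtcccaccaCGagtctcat
Pvalb entry 2, chr15:78204238-78204487, minus strand: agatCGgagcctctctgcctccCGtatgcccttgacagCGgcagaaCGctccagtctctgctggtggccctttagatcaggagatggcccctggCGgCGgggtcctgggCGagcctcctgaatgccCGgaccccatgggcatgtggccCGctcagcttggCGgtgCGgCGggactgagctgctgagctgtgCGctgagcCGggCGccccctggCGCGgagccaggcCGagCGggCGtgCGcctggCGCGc

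Dlx2 held 24 CG in these 250 bases and Dlx1 22, against a median of 6 over 32851 promoters of the same length. Gad1 held 17 (percentile 76.5), Gad2 13 (percentile 68.5) and Slc32a1 12 (percentile 66.5). Sst held 8. Pvalb spans both ends, with 4 at the first of its 2 annotated starts and 23 at the second. The 3 annotated starts of Lhx6 held 14, 17 and 7. The palindrome TGACGTCA, the sequence known as the cAMP response element, occurred in the Sst promoter alone among the 8 genes, at offset -48 from the start, and in 1.55% of all promoters. TATAAA, searched on both strands, occurred in Gad1 alone, on the reverse strand at offset -141, and in 12.37% of all promoters. TAATTA, the core that homeodomain factors such as the Dlx proteins bind, occurred in none of the 8 genes' windows and in 4.84% of all promoters. The matches of the 3 motifs do not overlap one another.

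The acetylated regions had very different widths. The Dlx1/Dlx2 region (chr2:71363448-71385052) was 21.6 kb wide, and 2.80% of the 16529 prom regions were as wide. The Gad1 region (chr2:70395958-70408265) was 12.3 kb wide, and 7.66% of prom regions reached that width. The Gad2 region (chr2:22475953-22481564) had 5.61 kb, the Pvalb prom region (chr15:78030882-78035924) 5.04 kb, the Slc32a1 region (chr2:158434589-158439324) 4.74 kb and the Lhx6 region (chr2:35956950-35961444) 4.50 kb. All 6 were thus wider than the median prom region of 3.06 kb. The 2 enh regions were the Sst region (chr16:23896963-23900291), with 3.33 kb, and the Pvalb enh region (chr15:78024886-78027001), with 2.12 kb, against a median of 2.38 kb for their class.

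No prom region overlapped the Sst window. The enh region there lies at the window's upper end, and its assignment to Sst rests on the window alone. Region numbers run in genome order within each class, and no prom number is absent between the prom regions that flank any of the 7 windows. Of the enh numbers, 2 are absent around Sst, 2 each around Gad2, Slc32a1 and Pvalb, 4 around Lhx6, 1 around Dlx1/Dlx2 and 0 around Gad1, so enhancer regions near 6 of the loci may not have been analysed here. Over the whole table, 12706 enh numbers are absent up to the highest, 45320, and 8 prom numbers up to 16537. Absent enh numbers are thus common, and absent prom numbers rare, at any locus. In the RefSeq gene table (GRCm38.p6), Gad1os overlaps Gad1, Mir3967 overlaps Gad2, Gm14204 overlaps Slc32a1 and Dlx1as overlaps Dlx1. ChIP signal has no strand, and the Dlx1/Dlx2 region is a single row, so the signal of these neighbours cannot be told apart.

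Per length, the 6 prom regions had low signal for their class, without matching for width. All 6 were wider than the median prom region. Over all 10 libraries the level per kb was 21.2 ± 3.74 pseudo-counts (SD) in the Gad2 region, 20.5 ± 2.55 in Slc32a1, 19.9 ± 2.10 in Gad1, 17.7 ± 2.61 in Dlx1/Dlx2, 17.4 ± 4.17 in Lhx6 and 15.1 ± 2.22 in the Pvalb prom region. The median prom region had 31.2 per kb, and the 6 regions stood between percentile 6.04 (Pvalb) and percentile 25.3 (Gad2) of their class. The enh regions had 17.4 ± 3.56 per kb at Pvalb and 15.6 ± 3.08 at Sst, against a class median of 17.8. In the order of these levels, the ranges of neighbours overlapped in every case, and Gad1 over Dlx1/Dlx2 was the one neighbouring pair whose order held in 10 of 10 libraries. The summed value over a region gave another order, led by Dlx1/Dlx2 at percentile 90.2 and Gad1 at percentile 80.1 of prom regions, the 2 widest of the 8. By this measure Gad2 stood at percentile 52.7, Slc32a1 at 44.2, Lhx6 at 35.8 and the Pvalb prom region at 34.9.

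The main comparison asked whether cortical H3K27ac at inhibitory neuron genes differs between Het mice and their WT littermates. No region of the 8 passed the test (limma on log2(value + 1) with sex as a term, Benjamini-Hochberg over 50898 regions, adjusted p = 1.00 for each), and none had an unadjusted p under 0.05. Over all regions, 1 passed, or 0.00196%, and 2.1% had an unadjusted p under 0.05. Of the 8 regions, 3 had a higher fitted level in Het and 5 a lower one, with a median log2 difference of -0.02. Over all regions the median was 0.01, with 53% higher in Het. By class, it was -0.02 over all prom regions, with 43.6% higher, and 0.03 over all enh regions, with 58% higher. Within pairs, the number with a higher value in Het ran from 1 to 4 of 5, so none of the 8 had one direction in every pair. Of all regions, 3.53% were higher and 2.46% lower in Het in every pair, so a count of 0 among 8 is near that share. The main fit does not use the pairing, and the SE and intervals given per locus come from it. With the litter as a block, the SE was smaller, as for Lhx6 (0.12 against 0.17) and Gad2 (0.10 against 0.13). In that fit, 0 of the 8 had an unadjusted limma p under 0.05, against 4.63% of all regions.

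The GABA synthesis genes come first. The Gad1 region had 226, 238, 270, 271 and 203 pseudo-counts in WT mice of pairs 1 to 5, and 240, 256, 264, 269 and 207 in their Het littermates. The 2 ranges cover each other almost completely, and the WT mean was 242 ± 29.4 and the Het mean 247 ± 24.9 (SD over 5 mice per genotype). The log2 difference was 0.03 (SE 0.10), with a 95% interval of 0.888 to 1.18 in fold. The Gad2 region had 106, 116, 146, 122 and 76.9 in WT and 138, 118, 125, 142 and 99.3 in Het. It was higher in Het in 4 of 5 pairs, with means of 113 ± 24.97 and 124 ± 17.1, and the groups overlapped. Its log2 difference was 0.15 (SE 0.13), with an interval of 0.926 to 1.34 in fold, and it was 0.03 without WT replicate 5 and 0.27 without WT replicate 3.

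At the vesicular GABA transporter gene, the Slc32a1 region had 82.4, 113, 112, 107 and 94.6 in WT and 87.4, 108, 95.02, 87.5 and 82.6 in Het. The Het value was the lower in pairs 2 to 5, and the group means of 102 ± 13.1 and 92.1 ± 9.91 differed by less than the SD within either group. The log2 difference was -0.14 (SE 0.12), with an interval of 0.771 to 1.07 in fold.

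At the lineage factors, the differences were again within the spread. The Dlx1/Dlx2 region had 369, 365, 428, 471 and 302 in WT and 373, 419, 381, 423 and 290 in Het. Its means were 387 ± 65.0 and 377 ± 53.5, with a log2 difference of -0.03 (SE 0.10) and an interval of 0.845 to 1.13 in fold. The Lhx6 region had 80.4, 59.0, 91.0, 82.0 and 54.7 in WT and 97.3, 92.2, 78.1, 101.4 and 47.3 in Het. It held both its highest and its lowest value among Het mice, so the Het spread enclosed that of WT. Its means were 73.4 ± 15.7 and 83.3 ± 21.95, with a log2 difference of 0.16 (SE 0.17) and an interval of 0.879 to 1.42 in fold, and the log2 difference was 0.04 without WT replicate 2 and 0.34 without Het replicate 5.

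Averaged over the 10 libraries, the 3 regions in the windows of the subtype genes had the lowest summed values of the 8. In WT alone, the Lhx6 region lay below the Pvalb prom region. The Pvalb prom region, at the gene of a calcium-binding protein of fast-spiking cells, had 82.6, 73.8, 73.1, 82.6 and 80.6 in WT and 67.8, 98.2, 60.1, 80.6 and 62.9 in Het. The WT values lay close together and inside the Het range, with means of 78.6 ± 4.72 and 73.9 ± 15.7. The log2 difference was -0.11 (SE 0.13), with an interval of 0.774 to 1.11 in fold. The Pvalb enh region had 37.0 ± 7.88 in WT and 36.7 ± 8.11 in Het, with a log2 difference of -0.01 (SE 0.19). The Sst region overlaps the window set around the gene of the peptide somatostatin. It had 50.04, 60.7, 56.8, 51.9 and 43.0 in WT and 67.9, 56.9, 33.7, 56.3 and 40.6 in Het. Its highest and lowest values were both in Het mice, its means were 52.5 ± 6.77 and 51.1 ± 13.7, and its log2 difference was -0.07 (SE 0.16), with an interval of 0.755 to 1.198 in fold. The 8 regions held between 17 and 630 reads per library, and the Pvalb enh and Sst regions 17 and 20 reads in WT replicate 5, which limits what could be detected there.

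**Figure D1:**
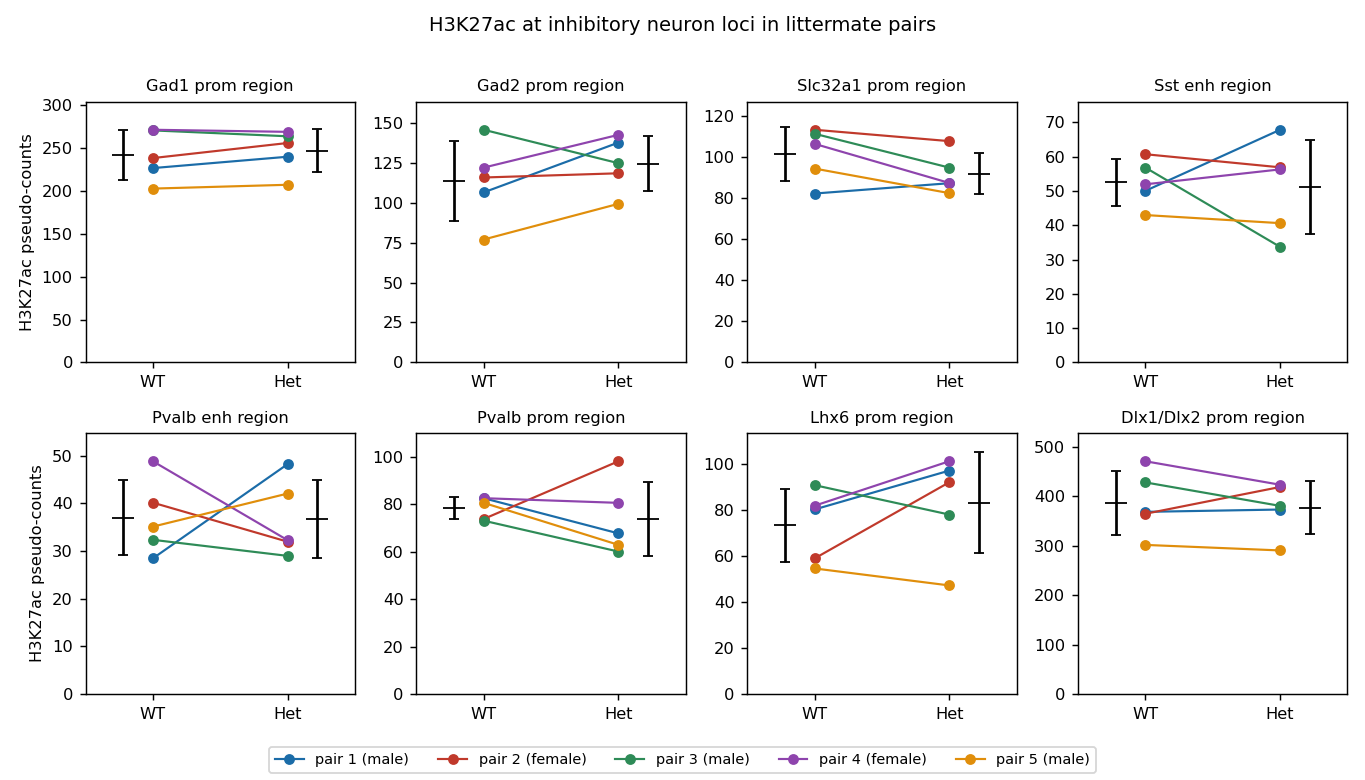
H3K27ac pseudo-counts (vertical axis, from 0) of the 8 regions in WT and Het mice. Each coloured line joins the 2 littermates of a pair, and black bars give the mean and SD of 5 mice. Lines cross in most panels, while the orange line of pair 5 is at the bottom for Gad1, Gad2, Lhx6 and Dlx1/Dlx2.

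**Figure D2:**
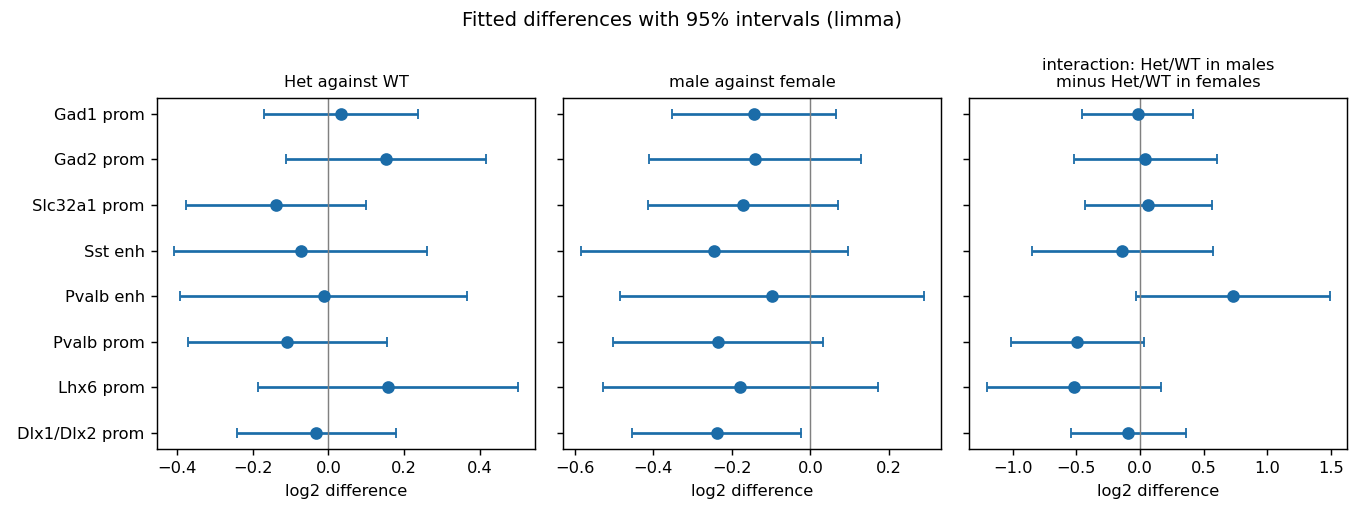
Fitted log2 differences (points) with 95% intervals (bars) for the 8 regions, for Het against WT, male against female and their interaction, by limma. All intervals for Het against WT include 0. Among the others, only that of Dlx1/Dlx2 for sex leaves it out, with an unadjusted p of 0.0303 and an adjusted p of 0.309. These fits counted littermates as separate mice.

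In the authors' deposited table, the 8 regions have an FDR of 1.0 and p-values from 0.266 (Slc32a1) to 0.9685 (Pvalb enh).

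One littermate pair stood low at several of the loci. In pair 5, both mice had the 2 lowest values of all 10 libraries at Gad1, Gad2, Lhx6 and Dlx1/Dlx2. For the Lhx6 region these were 54.7 and 47.3, against 59.0 to 101.4 in the other 8 libraries, and the mean of the pair was 59.8% of their mean. The Gad2 region had 76.9 and 99.3 against 106 to 146, or 69.6%. The Dlx1/Dlx2 region had 302 and 290 against 365 to 471, or 73.4%. The Gad1 region had 203 and 207 against 226 to 271, or 80.6%. At these 4 loci the pair was thus low in the mouse of either genotype.

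This pattern was noticed in these data and was not tested. Both mice of pair 5 were the 2 lowest in 4 of the 8 regions (50%), against 6.79% of all prom regions and 8.74% of prom regions of 10 kb or more. No other pair held the 2 lowest places in any of the 8. The other pairs each held them in 2.06% to 6.26% of all prom regions. Pair 5 was singled out because it was low, so its own share is too small a background. The 4 regions also varied together across mice, so they are not 4 separate observations. Relative to the other pairs, pair 5 had a median log2 difference of -0.34 over the 8 regions, 0.01 over all prom regions and -0.02 over prom regions of 10 kb or more. The Pvalb enh region went the other way (106% of the mean of the other 8 libraries), and the Pvalb prom and Slc32a1 regions were near them, at 92.8% and 89.5%. The Sst region had 77.0%, yet its lowest value, 33.7, was in Het replicate 3. WT replicate 5 was the shallowest library, with 2771534 reads in regions, while Het replicate 5 held 6262904, more than 4 of the other 8 libraries. The Lhx6, Gad2, Gad1 and Dlx1/Dlx2 regions held 25, 35, 98 and 146 reads in WT replicate 5. In Het replicate 5 they held 54, 112, 233 and 327. As CPM of all reads in regions, the Gad2 region had 12.6 in WT replicate 5 and 17.9 in Het replicate 5, against 19.2 to 26.1 in the others. Without pair 5, no region of the 8 passed the genotype test either.

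**Figure D3:**
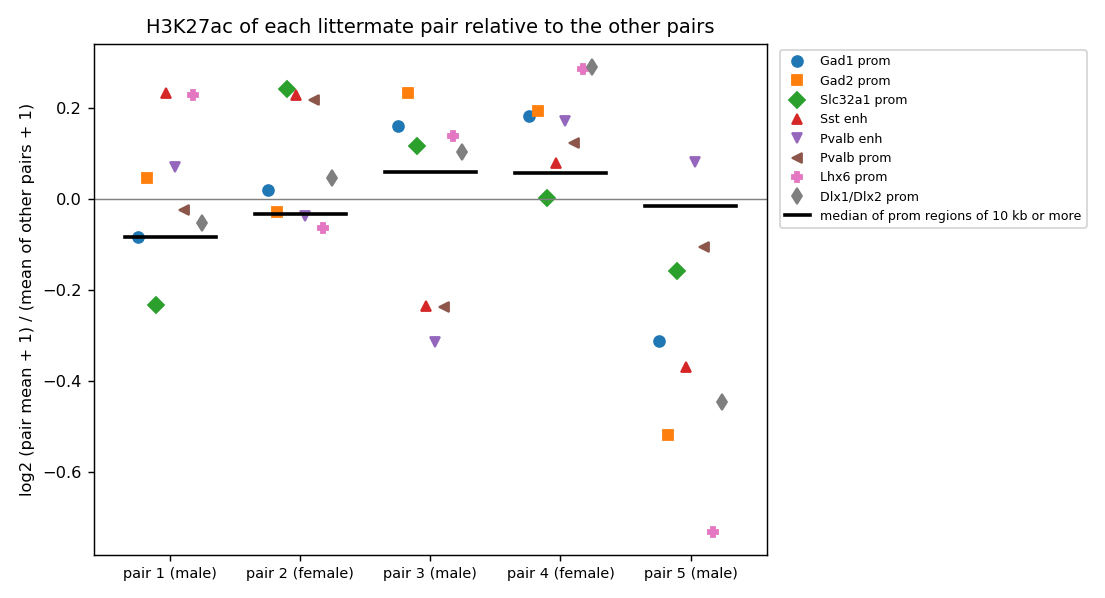
Mean of each littermate pair relative to the mean of the other 4 pairs, as log2((mean + 1)/(mean of others + 1)), for the 8 regions (symbols) and as a median over prom regions of 10 kb or more (black lines). In pair 5, symbols reach down to -0.73 (Lhx6) while the black line is at -0.02.

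Several of the regions varied together across mice. Over the 10 libraries, log2 values of Gad1 and Dlx1/Dlx2 correlated with r = 0.94, of Gad1 and Gad2 with r = 0.85, of Lhx6 and Dlx1/Dlx2 with r = 0.82, and of Gad1 and Lhx6 with r = 0.79. Gad1, Gad2, Lhx6 and Dlx1/Dlx2 thus formed a block in which the lowest r was 0.76. The Pvalb enh region stood apart, with r from -0.19 to 0.36 against the other 7. The mean r over the 15 pairs of the 6 prom regions was 0.49, against 0.01 over pairs of all prom regions and 0.08 over pairs of the 10766 prom regions that were at least as strong as the weakest of the 6. With the mean of each littermate pair removed, the mean r was 0.31 over the 6, against 0.02 and 0.07. Gad1 then still had r = 0.75 with Lhx6 and r = 0.66 with Dlx1/Dlx2, while Gad2 and Dlx1/Dlx2 had r = -0.02. These values describe 10 libraries that share a scaling, and they carry no test.

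**Figure D4:**
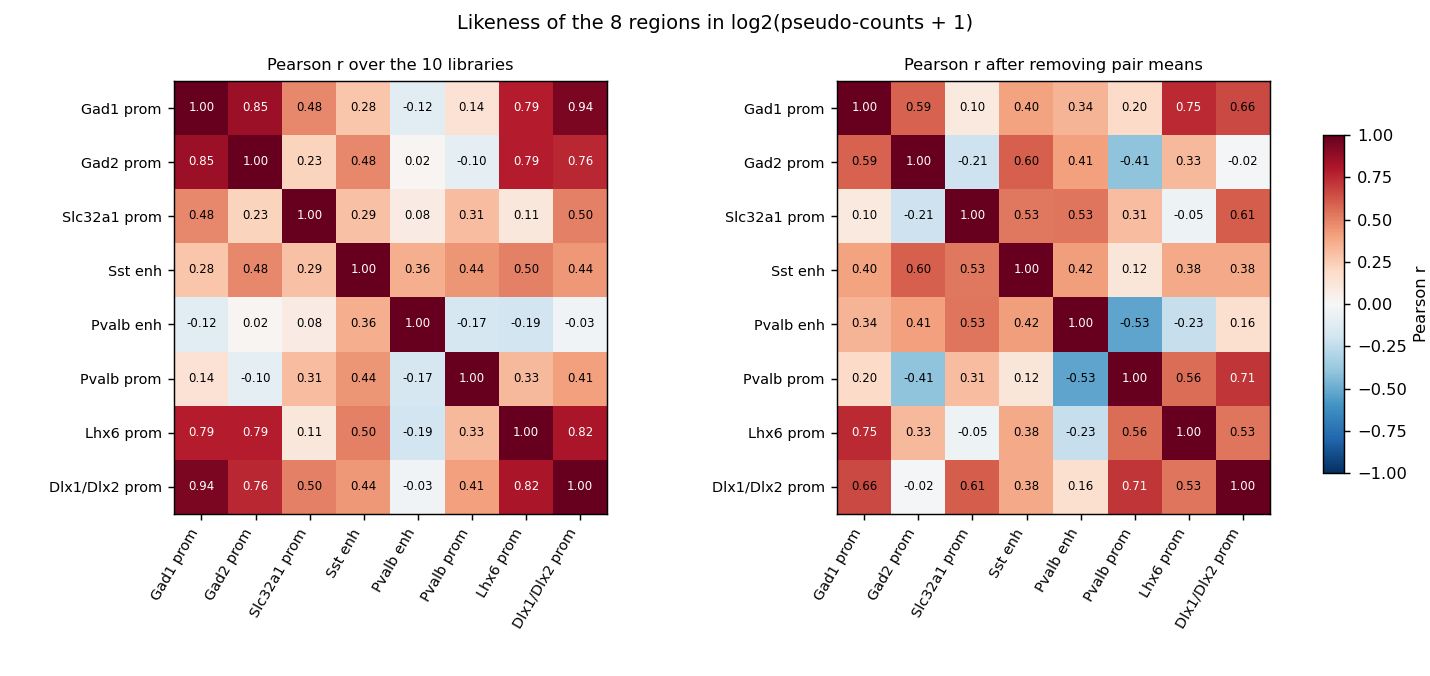
Pearson r between the 8 regions over 10 libraries, on log2(pseudo-counts + 1), before (left) and after (right) removing the mean of each littermate pair. The right side rests on 5 differences within pairs. Gad1, Gad2, Lhx6 and Dlx1/Dlx2 have r of 0.76 or more with one another on the left; on the right, Gad1 has r = 0.75 with Lhx6 and r = 0.66 with Dlx1/Dlx2.

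The 5 regions elsewhere in the genome whose values followed the mean log2 value of the strongest region per locus most closely had r from 0.93 to 0.95 over the 10 libraries and were picked as the extremes of the whole table. The nearest was the prom region chr3:21971179-21978601, which had 385 and 372 pseudo-counts in pair 5 and 396 to 474 in the others. The next was the prom region chr3:59022983-59024569, with 14.3 and 12.1 in pair 5 and 15.6 to 34.0 in the others. The other 3 were the enh regions chr14:22591285-22593312 and chr4:41121629-41123508 and the prom region chr18:3280154-3282491. The mean log2 value they were matched to was itself lowest in pair 5 (6.63 in WT and 6.56 in Het, against 6.79 to 7.06 in the others), so their low values there follow from the choice.

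The labels also allow males and females to be compared, though each sex is a separate set of litters. All 8 regions had a lower fitted level in males, with a median log2 difference of -0.17, while 48.9% of all prom regions, 58.6% of all enh regions and 55.3% of all regions had a higher one. None of the 8 passed (limma adjusted p from 0.309 to 0.893), against 0.904% of all regions, and 1 had an unadjusted p under 0.05, against 13.2%. Males (n = 6) had 357 ± 52.0 pseudo-counts in the Dlx1/Dlx2 region, and females (n = 4) 420 ± 43.5 (log2 difference -0.24, SE 0.11, limma adjusted p = 0.309), and the ranges of 290 to 428 and 365 to 471 overlapped. The Pvalb prom region had 71.2 ± 9.24 and 83.8 ± 10.3 (log2 difference -0.23, SE 0.13). Without the male pair 5, the Gad2 difference went from -0.14 to 0.04 and the Lhx6 difference from -0.18 to 0.07, while that of Dlx1/Dlx2 went from -0.24 to -0.11 and that of Slc32a1 from -0.17 to -0.14. With pair 5 taken as 1 litter, the males came from 3 litters and the females from 2. The fit counted littermates as separate mice. Its SE and p-values for sex may thus be too small. Sex and litter cannot be told apart here.

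Whether the genotype difference itself depends on sex was tested as an interaction. None of the 8 regions passed (limma adjusted p = 1.00 for each, against 0% of all regions), and none had an unadjusted p under 0.05, against 1.36%. The 2 Pvalb regions had the smallest unadjusted p and opposite signs. The Het minus WT log2 difference was larger in males by 0.73 (SE 0.37, unadjusted limma p 0.0587) in the enh region and by -0.49 (SE 0.26, unadjusted limma p 0.0651) in the prom region 3.9 kb away. In the enh region the Het mouse was higher in pairs 1 and 5, both male, with 28.4 against 48.2 and 35.1 against 42.03. It was lower in male pair 3, with 32.3 against 29.0, and in both female pairs, with 40.1 against 31.9 and 48.8 against 32.3. In the prom region the Het mouse was lower in all 3 male pairs and in pair 4, and higher in pair 2, with 73.8 against 98.2. Lhx6 had an interaction of -0.52 (SE 0.34), with a higher Het value in both female pairs and in male pair 1. With the litter as a block, these 3 had unadjusted limma p-values of 0.0369, 0.0424 and 0.0342, and adjusted p-values of 0.999. In that fit, 3.59% of all regions had an unadjusted p under 0.05.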

How the data were processed

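The deposited signal values are pseudo-counts per the file headers (counts set to equal library size), beside a log2 fold change, log2 CPM, p-value and FDR per region; the submitters' processing notes name Bowtie2, edgeR and mm9. For region calling and classes, the sources used here give no method. The adjustment draws values of shallow libraries towards their genotype mean and would hide a uniform change.

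Limma 3.58.1 (R 4.3.3; trend, robust) was fitted to log2(value + 1) of all 50898 regions with sex and genotype, and with their interaction; fold changes on this scale understate those of weak regions. The threshold was an adjusted p of 0.05. The fit was tested on simulated data. Inverting the authors' library size adjustment gave back reads: 99.997% of values fell within 0.1 of a whole number. Reads in regions ranged from 2771534 to 8453149 per library.

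The labels describe littermates and titles share litter numbers, so replicate numbers pair the libraries, for pair 5 by elimination. Deviations from genotype means correlated within pairs 1 to 5 at 0.23, 0.12, 0.08, 0.36 and 0.42. Mismatched mice were not compared, so these values cannot show that the pairing is right. Members and lists were chosen with earlier results of these data known. The text names in full the strongest prom region per locus (for Sst the enh region), the region with the smallest genotype p, and the 5 most alike regions. The gene windows were not checked against an mm9 annotation, and other inhibitory genes and markers of other cell types were not analysed here, since gene positions at hand were of GRCm38.p6. Alternatives were other pseudocounts, scalings, filters and windows, the litter block, no sex term and left-out libraries; limma-voom on recovered reads and leaving out pair 5 were added after seeing the data.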

Additional observations from a re-analysis of the deposited data

How the results depend on the processing

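No region of the 8 was called for genotype, sex or the interaction under any setting run: pseudocounts of 0.5 and 5, a filter at a mean of 20, median-of-ratios scaling, cyclic loess, wider windows (12 regions), left-out libraries, limma-voom on recovered reads and, for genotype and sex, leaving out pair 5. With the litter as a replicate block, 0 were called for genotype (adjusted p = 1.00 for each) and 0 for the interaction (adjusted p = 0.999), and without the sex term 0 for genotype. The lowest adjusted p over all settings was 0.896 for genotype (Slc32a1), 0.103 for sex (Dlx1/Dlx2) and 0.999 for the interaction. The log2 difference between genotypes stayed above 0 for Gad2 and Lhx6 and below 0 for Slc32a1 and the Pvalb prom region in all 19 settings, but its size moved: leaving out single libraries took Gad2 from 0.0254 (without WT replicate 5) to 0.2741 (without WT replicate 3, unadjusted limma p 0.0402) and Lhx6 from 0.0378 (without WT replicate 2) to 0.3441 (without Het replicate 5, unadjusted limma p 0.0223). Leaving out single libraries turned the sign of the other 4: the Pvalb enh region ran from -0.135 to 0.0977, Sst from -0.2209 to 0.0488, Gad1 from -0.0182 to 0.0949 and Dlx1/Dlx2 from -0.0988 to 0.0413. For sex, it moved the Pvalb enh region from -0.199 to 0.0408, and leaving out pair 5 gave 0.0398 for Gad2 and 0.0731 for Lhx6. Interactions near 0 also turned: single libraries moved Sst from -0.425 to 0.0695, Gad2 from -0.187 to 0.269, Gad1 from -0.1151 to 0.0923, Dlx1/Dlx2 from -0.2758 to 0.0924 and Slc32a1 from -0.0854 to 0.2137, cyclic loess gave 0.0094 for Gad1, and limma-voom gave -0.0042 for Gad2. The cause of these changes was not tested. Sums per locus moved by less than their spread between pairs in every setting run. Depth limits the Pvalb enh and Sst regions most.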
